A study of Homo sapiens with 60 samples.

Results

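RNA labelled by a fusion of NPAT to the peroxidase APEX2 was compared with RNA labelled by fusions to 9 other proteins of nuclear bodies. The NPAT side held 2 pulldown libraries, chosen by their labels. The reference was the equally weighted mean of the SRSF1, SRSF7, RNPS1, SAM68, PML, SP100, SMN2, WRAP53 and FBL pulldowns, 18 libraries in all. These 20 libraries were part of 60 in the series. Every group was a Flp-In HEK293 line (human embryonic kidney) with stable expression of the named construct. All were labelled alike, with biotin-phenol at 500 µM over 30 minutes and then hydrogen peroxide at 1 mM over 1 minute. APEX2 turns biotin-phenol into a short-lived radical that tags molecules close to the enzyme, and streptavidin then recovers the tagged RNA. The labels do not say how strongly a fusion was expressed beside the native protein, whether a line was 1 clone, or whether the 2 libraries of a bait came from separate cultures, so a p-value reflects only how far these libraries spread, which may be technical. RNA taken before the pulldown (the input) entered no test of the main comparison; its values, also set against those of the other inputs, are given as description.

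NPAT is the scaffold and transcriptional coactivator of the histone locus body, which forms at the clusters of replication-dependent histone genes. In S phase, cyclin E and CDK2 phosphorylate NPAT, and the histone genes of the clusters are transcribed together. Their mRNAs lack introns and poly(A) tails and end in a stem-loop that SLBP binds, after a cleavage directed by the U7 small nuclear RNA. Among the other baits, SRSF1, SRSF7 and RNPS1 are proteins of nuclear speckles, SAM68 (gene KHDRBS1) is an RNA-binding protein, PML and SP100 mark PML bodies, SMN2 encodes the SMN protein of gems, WRAP53 marks Cajal bodies, and FBL (fibrillarin) marks the nucleolus and Cajal bodies.

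Promoters of 5 histone genes are shown because histone genes are the known targets of NPAT and stood on both sides of the comparison: the first 3 genes were higher in the NPAT pulldown than in the mean of the others, and the last 2 were lower. Each is the stretch of 120 bases before the start of the gene, 5′ to 3′ on the strand of the gene, from RefSeq (GRCh38.p14). Capitals mark the octamer ATTTGCAT, which POU2F1 (OCT1) binds, the TATA motif TATAAA and the motif CCAAT, each searched on both strands. H2AC20 and H4C5 had the highest differences, and H1-3 and H3C6 the lowest, among histone genes with a promoter and at least 5 CPM on average. H2BC11 was added as the highest H2B gene with an octamer in this window, so the motif was part of its choice.
H2AC20, chr1:149886798-149886917, plus strand: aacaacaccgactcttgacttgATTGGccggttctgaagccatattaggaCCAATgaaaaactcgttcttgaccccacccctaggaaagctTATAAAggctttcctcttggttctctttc
H4C5, chr6:26204490-26204609, plus strand: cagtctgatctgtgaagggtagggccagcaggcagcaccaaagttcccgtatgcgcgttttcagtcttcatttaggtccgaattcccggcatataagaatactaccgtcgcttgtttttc
H2BC11, chr6:27132796-27132915, minus strand: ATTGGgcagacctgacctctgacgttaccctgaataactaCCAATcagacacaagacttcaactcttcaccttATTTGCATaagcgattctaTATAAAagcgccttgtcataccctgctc
H1-3, chr6:26234988-26235107, minus strand: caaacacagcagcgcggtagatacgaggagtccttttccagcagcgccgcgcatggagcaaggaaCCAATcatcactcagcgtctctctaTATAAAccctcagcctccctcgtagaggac
H3C6, chr6:26224058-26224177, plus strand: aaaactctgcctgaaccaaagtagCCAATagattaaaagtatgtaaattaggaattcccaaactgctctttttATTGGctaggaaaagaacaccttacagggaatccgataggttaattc
Of the 46 histone genes tested, 41 had a promoter in the RefSeq table. The octamer stood in 9 of 14 H2B promoters (64.3%), 1 of 8 H2A promoters and 0 of 8 H4 promoters, against 0.857% of 27305 promoters of all genes over the same window. CCAAT stood in 80.5% of the histone promoters against 21.2% of all, and TATAAA in 56.1% against 6.01%. H4C5 held none of these motifs in this window. A match describes letters and is not a measured binding site.

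The NPAT libraries differed from each other more than most pairs. Of 12247 genes compared, 108 were over 2-fold apart between the 2 NPAT pulldowns, against 120 for SMN2 and 4 to 22 for the 8 other baits. The chi-square of the counts per degree of freedom was 36.7 for NPAT, 31 for SMN2 and 2.98 to 21.9 for the rest. Depth ran from 19280434 to 40519593 counts per pulldown library, with 0.275% to 1.1% of them from mitochondrial genes. The inputs fell into separate sets: RPS14P8, a ribosomal protein pseudogene, had 395 to 1078 counts in the inputs of 7 baits, NPAT among them, and 6 to 13 in those of SRSF1, SRSF7 and PML, while the 20 pulldowns held 1 to 15. The 2 inputs of NPAT were over 2-fold apart for 1093 of 12111 genes and those of FBL for 2353, against 3 to 7 for the 8 other baits, so each NPAT input is given singly. VIM, KRT8, KRT18, NEFL and PAX2, genes known from HEK293 cells, had at least 5.7 CPM (a library's counts scaled to a common total) in each pulldown, and NEFM stayed below 1 CPM. Of 18 blood, fibroblast and hepatocyte markers, COL1A1 reached 11.7 CPM, COL3A1 3.6 and PDGFRA 2.58, and no other passed 1.03.

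The NPAT gene itself was high in the NPAT pulldown. It lies at chr11:108157215-108222638 (GRCh38.p14). Its level was 203 and 218 CPM (here and below scaled with TMM factors, replicate 1 first) in the NPAT libraries, and 55.9 at the lowest, 72.2 at the median and 91 at the highest in the 18 others. The groups did not overlap, and the log2 difference was 1.55 ± 0.06 (SE; edgeR quasi-likelihood test, n = 2 and 18 libraries, adjusted p = 6.73e-13). The NPAT inputs held 89.5 and 190 CPM for this gene, each above the 18 other inputs. Whether these reads came from the native gene or from the construct cannot be told apart in gene counts.
ATM, the DNA damage kinase whose gene lies beside NPAT at chr11:108223067-108369102, had 166 and 150 CPM against 113 to 191 in the others. Its log2 difference of 0.07 ± 0.07 did not pass the test (edgeR adjusted p = 0.49).
Each of the 9 other bait genes had its highest mean in the pulldown of its own bait, and that pulldown is part of the reference. WRAP53, for example, stood at -0.77 ± 0.08, with 27.7 and 24.8 CPM in NPAT and a median of 28.6 in the others.

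Of 22668 genes tested, 7856 (34.7%) passed an adjusted p of 0.05 in NPAT against the mean of the 9 others. They were split into 3734 higher (16.5%) and 4122 lower (18.2%) in NPAT, and the counts of gene groups given here are read against those shares. A difference of at least 2-fold was met by 1077 of the higher and 382 of the lower genes. Both NPAT libraries lay above all 18 others for 253 genes (1.12%) and below all 18 for 384 (1.69%). In bulk libraries, fewer cells with an RNA and less of it per cell cannot be told apart, and a pulldown level also reflects how much of an RNA a line makes. The other baits, each set against the mean of its 9 counterparts, gave 6187 (PML) to 13315 (SRSF7) called genes. With the 18 other libraries treated as 1 group, so that the spread between baits entered the error, 5 genes passed, 3 higher (NPAT, DLGAP1 and AC010148.1) and 2 lower (LINC00958 and TNK1), and 1870 had an unadjusted p under 0.05 by the same edgeR test. The p-values given here therefore compare NPAT with the average of these 9 baits, not with the spread among them. Without NPAT replicate 1, 3446 genes were called, 5.95% of the tested genes being higher and 8.18% lower. Without NPAT replicate 2, 14.3% were higher and 14.4% lower. Counts of a list without a replicate are read against these shares.

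Fewest genes separated NPAT from WRAP53 and FBL, and most separated it from SRSF1 and SRSF7. Against single baits, 12690 genes (56%) were called for SRSF1, 13050 (57.6%) for SRSF7, 9456 (41.7%) for RNPS1 and 9550 (42.1%) for SAM68. The counts were 6348 (28%) for PML, 7339 (32.4%) for SP100 and 4912 (21.7%) for SMN2. They were 2426 (10.7%) for FBL and 1719 (7.58%) for WRAP53. These comparisons share the NPAT libraries. The genes higher in NPAT were 28% of all against SRSF1, 29% against SRSF7, 22.5% against RNPS1, 17% against SAM68, 13.5% against PML and 15.8% against SP100, and 7.31%, 3.85% and 4.73% against SMN2, WRAP53 and FBL. Those lower were 28%, 28.6%, 19.3%, 25.1%, 14.5%, 16.5%, 14.4%, 3.73% and 5.97% in the same order of baits, and lists set against 1 bait are read against these shares. Genes called in 1 direction against each of the 9 baits numbered 33 higher and 43 lower.

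**Figure D1:**
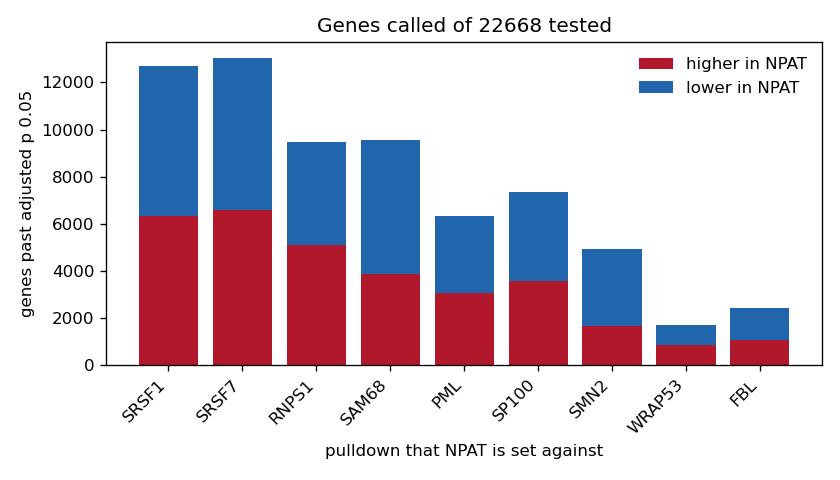
Number of genes past an adjusted p of 0.05 (vertical axis, from 0) when the NPAT pulldown was set against each of 9 other pulldowns (horizontal axis), stacked as higher and lower in NPAT. The bars total 13050 for SRSF7 and 1719 for WRAP53.

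Replication-dependent histone RNAs were more often higher than lower in NPAT, by small amounts. Of 67 such genes in the table, 46 were tested; the 21 others had at most 7 counts in any library, and 3 of them had none. Of the 46, 20 (43.5%) were higher and 4 (8.7%) lower, against 16.5% and 18.2% of all genes. The median log2 difference was 0.20, against 0.01 for all genes. Of the 46, 0 had both NPAT libraries above all 18 others and 0 had both below. Genes of a histone class are near copies of each other, so reads can be split among them and values of single genes are uncertain.

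Summed over the 46 genes, histone RNAs took 1871 CPM in NPAT replicate 1 and 2393 CPM in NPAT replicate 2. The 18 other libraries held 1084 at the lowest, 1924 at the median and 2456 at the highest. NPAT replicate 1 lay below the median of the others, and replicate 2 below 1 SMN2 and 1 FBL library only. The median difference over the 46 genes was 0.00 in replicate 1 and 0.39 in replicate 2. The inputs held more of these RNAs, with 8362 and 6485 CPM for NPAT and 4241 to 8471 for the others.

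**Figure D2:**
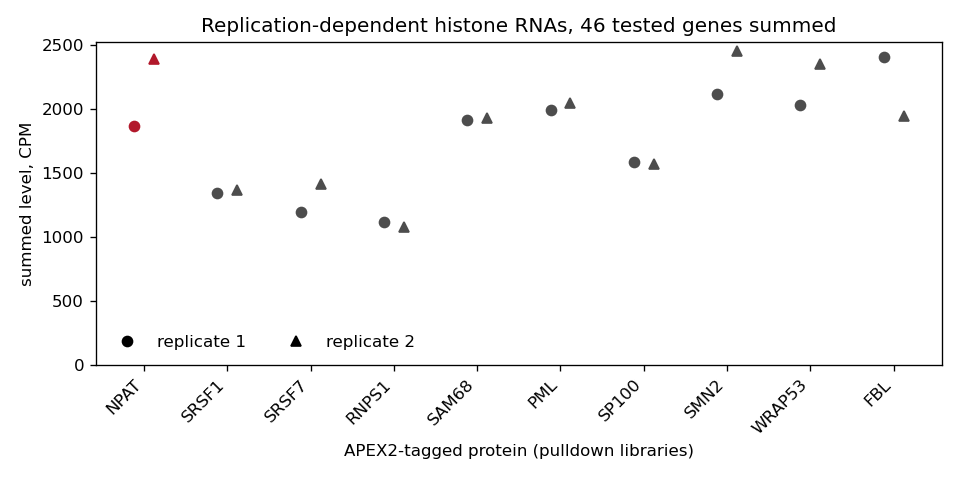
Summed level in CPM of the 46 tested replication-dependent histone genes (vertical axis, from 0) in each pulldown library by tagged protein, with replicate 1 as circles and replicate 2 as triangles. NPAT replicate 1 at 1871 lies below every SAM68, PML, SMN2, WRAP53 and FBL library and above every SRSF1, SRSF7, RNPS1 and SP100 library, and NPAT replicate 2 lies at 2393.

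H2B, which pairs with H2A in the nucleosome, had 8 of 14 genes higher and 0 lower, with a median of 0.39. H2BC11, with an octamer in its promoter, had 79.9 and 116 CPM in NPAT, against 41.7, 68.1 and 99 (lowest, median and highest) in the others. Replicate 2 lay above all others and replicate 1 among them. The log2 difference of H2BC11 was 0.53 ± 0.13 (edgeR adjusted p = 0.00448). H2BC17 had 19.9 and 33.4 CPM against 11.6 to 28.9 and stood at 0.60 ± 0.14, and H2BC21, H2BC18 and H2BC7 stood at 0.42 ± 0.08, 0.42 ± 0.09 and 0.52 ± 0.11.

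H4, which pairs with H3 in the nucleosome, had 7 of 11 genes higher and 0 lower, with a median of 0.31. H4C5 (chr6:26204610-26205021) had 45.2 and 57.3 CPM in NPAT, against 21.5 to 49.2 in the others with a median of 35.4. An SMN2 and an FBL library lay above NPAT replicate 1, and no library lay above NPAT replicate 2. The log2 difference of H4C5 was 0.64 ± 0.09 (edgeR adjusted p = 3.46e-05), and those of H4C8 and H4C2 were 0.59 ± 0.11 and 0.46 ± 0.09.

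H2A had 4 of 9 genes higher and 1 lower, with a median of 0.24. H2AC20 (chr1:149886918-149887411) had 51.8 and 74.9 CPM, against 25.4 to 62.5 with a median of 41.2. Its groups overlapped in replicate 1, and its log2 difference was 0.66 ± 0.13 (edgeR adjusted p = 0.000851). H2AC21, H2AC11 and H2AC12 stood at 0.61 ± 0.10, 0.49 ± 0.09 and 0.41 ± 0.09. H2AC13 was lower, at -0.41 ± 0.10, with 20.2 and 25.3 CPM against 18.5 to 51.6.

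Among the linker histones, which bind the DNA between nucleosomes, H1-4 was higher (0.32 ± 0.08) and H1-3 lower (-0.55 ± 0.10), and the 3 others tested were not called. H1-3 had 11.8 and 13.4 CPM in NPAT, within the range of 8.82 to 35.8 in the others, whose median was 22. Of 7 tested H3 genes, 0 were higher and 2 lower, with a median of -0.20. H3C6 stood at -0.51 ± 0.12, with 6.49 and 6.04 CPM against 5.37 to 21.1. H3C7 (chr6:26250142-26250635) stood at -2.52 ± 0.50, with 0.0331 and 0.238 CPM in NPAT against 0.0997 to 4.26. The NPAT inputs stood at -3.30 and -3.51 for H3C7, so its lower level was also seen before the pulldown.

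The histone genes higher in NPAT were counted against each bait, where the share of all genes called also differed. Of the 46 genes, 25 were higher against SRSF1, 29 against SRSF7, 31 against RNPS1 and 22 against SP100, with medians of 0.55, 0.71, 0.79 and 0.39. Against SAM68 and PML, 10 and 5 were higher, with medians of 0.08 and 0.02. Against SMN2, WRAP53 and FBL, 2, 1 and 3 were higher and 5, 4 and 7 lower, with medians of -0.10, -0.03 and -0.04. With SRSF1, SRSF7 and RNPS1 left out of the reference, 6 of the 46 were higher and 7 lower, which is near the shares of all genes in that fit (13% higher and 16.7% lower). H2BC11, H1-4, H2AC12, H2BC17, H2BC18 and H2BC7 lost their calls in that fit and without NPAT replicate 2. H2AC11, H4C2 and H3C6 lost theirs in that fit, and H2AC20 and H2AC21 lost theirs without NPAT replicate 2. Without NPAT replicate 2 the counts were 6 and 6, and without NPAT replicate 1 they were 23 and 3.

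**Figure D3:**
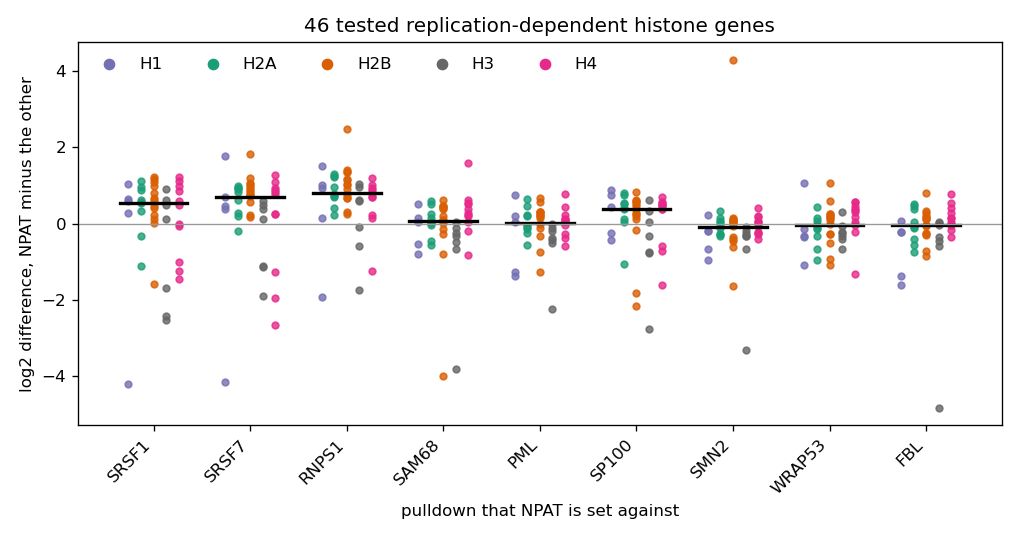
Log2 difference between the NPAT pulldown and each of 9 other pulldowns (horizontal axis) for the 46 tested replication-dependent histone genes (vertical axis), 1 point a gene coloured by histone class, with a black bar at the median. The medians run from 0.79 against RNPS1 to -0.10 against SMN2.

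Replacement histones, whose synthesis is not confined to S phase, differed little. Of 12 tested, 0 were higher and 1 lower, with a median of 0.03. The lower gene was H3-3A, at -0.37 ± 0.08, with 33.1 and 33.3 CPM against 31.6 to 71.6. CENPA, the centromeric H3, stood at -0.16 ± 0.09 and H2AZ1 at 0.13 ± 0.10, and neither passed the test.

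Other genes lying within the histone clusters were more often lower than higher. The clusters spanned chr6:25726063-27893891 and chr1:149782689-149887965 (GRCh38.p14), with 55 and 11 histone genes, and held 21 other tested genes. Of these, 10 (47.6%) were lower and 1 (4.76%) higher, with a median of -0.28. The butyrophilin genes BTN2A3P, BTN3A1 and BTN3A2 stood at -0.91 ± 0.09, -0.65 ± 0.11 and -0.63 ± 0.10, and the zinc finger gene ZNF322 at -0.54 ± 0.09. BTN2A3P (chr6:26421391-26430588) had 11.3 and 12.6 CPM in NPAT, 15.3 at the median of the others and 75.3 in an SRSF7 library, and the groups overlapped. Against SRSF1 and SRSF7, 13 and 12 of the 21 were lower, and against WRAP53 and FBL, where few genes of any kind were called, 0 were. The counts were 9, 10 and 9 against RNPS1, SAM68 and SP100, and 2 and 4 against PML and SMN2. The mean of BTN3A1 was 9.05 CPM in NPAT and 28, 35.3 and 23.4 in SRSF1, SRSF7 and RNPS1. In the other baits it ran from 9.2 (SMN2) to 10.8 (PML).

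Genes for proteins of the histone locus body and of histone mRNA processing were also more often lower. NPAT, the bait gene, is among the 21 tested, and its reads may come from the construct. Of the 21, 2 were higher (NPAT and POU2F1) and 8 lower, with a median of -0.10. The counts were 1 higher and 5 lower without NPAT replicate 1, with a median of 0.00011. POU2F1 had 240 and 182 CPM against 90.2 to 308, and a difference of 0.35 ± 0.08. The lower genes were ZNF473 (-0.75 ± 0.09), a protein of the U7 particle, CSTF2 (-0.63 ± 0.10) and SYMPK (-0.34 ± 0.07) of 3′ end processing, NELFE (-0.55 ± 0.09) of the elongation factor NELF, SRRT (-0.40 ± 0.07) and NCBP1 (-0.34 ± 0.07) of the cap-binding complex and its partners, HINFP (-0.37 ± 0.09), an activator of H4 genes, and the cyclin E gene CCNE1 (-0.30 ± 0.08). ZNF473 had 32.2 and 36.7 CPM against 34.4 to 134. POU2F1, HINFP, NCBP1 and SYMPK lost their calls without NPAT replicate 1, and CCNE1 without NPAT replicate 2. POU2F1, HINFP, SRRT and CCNE1 lost theirs without the 3 speckle baits.
The stem-loop binding protein gene SLBP had 85.8 and 94.7 CPM against 66.4 to 115 and did not pass the test (0.04 ± 0.07). CASP8AP2 (FLASH, 0.10 ± 0.07), LSM10 (-0.10 ± 0.10) and LSM11 (0.05 ± 0.09) of the U7 particle, and CDK2 (-0.14 ± 0.10), did not pass either. U7 itself had too few counts to be tested: RNU7-1 had 0 counts in the 20 libraries, and of 149 rows for U7 and its copies 24 had any count, at most 7 in a library. Of 24 small Cajal body RNAs, 0 passed the filter on low counts.

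Long genes were more often higher than lower in NPAT. Of 830 tested genes spanning 300 kb or more, 536 (64.6%) were higher and 7 (0.843%) lower, with a median log2 difference of 0.73. Of 3869 genes under 10 kb, 153 (3.95%) were higher and 1201 (31%) lower, with a median of -0.22. Of the genes under 10 kb, 568 were lower without NPAT replicate 1. Lengths are spans in RefSeq, introns included, of the tested genes matched by symbol (17288) or synonym (410). Among genes at least 2-fold higher with a length, 321 of 649 spanned 100 kb or more. Among those at least 2-fold lower, 182 of 210 spanned less than 30 kb. The rest of the 1077 higher and 382 lower genes had no length. Of all tested genes with a length, 3869 spanned under 10 kb, 4639 spanned 10 to 30 kb and 5595 spanned 30 to 100 kb. A further 2765 spanned 100 to 300 kb and 830 spanned 300 kb or more.
Genes of 300 kb or more summed to 110038 CPM in NPAT replicate 1 and 67871 in replicate 2, against 43298, 57187 and 86618 (lowest, median and highest) in the others. Replicate 1 lay above all other libraries and replicate 2 within their range. The medians of these genes were 0.98 and 0.35 in the 2 libraries, and both libraries lay above the mean of the 9 baits for 710 of the 830. How many of all tested genes had both libraries above that mean was not counted. Without NPAT replicate 1, 110 were called higher.
The inputs, which differed from each other, did not both share this direction: the same genes summed to 37132 and 54880 CPM in the NPAT inputs against 34290 to 56632 in the others, and their medians were -0.29 and 0.30. The part of this disagreement between the inputs in the pulldown result was not tested. Between baits, 670 of the 830 were higher against SRSF1, 604 against SRSF7 and 474 against SP100, while 151 were higher against SMN2, 47 against WRAP53 and 16, with 26 lower, against FBL.

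**Figure D4:**
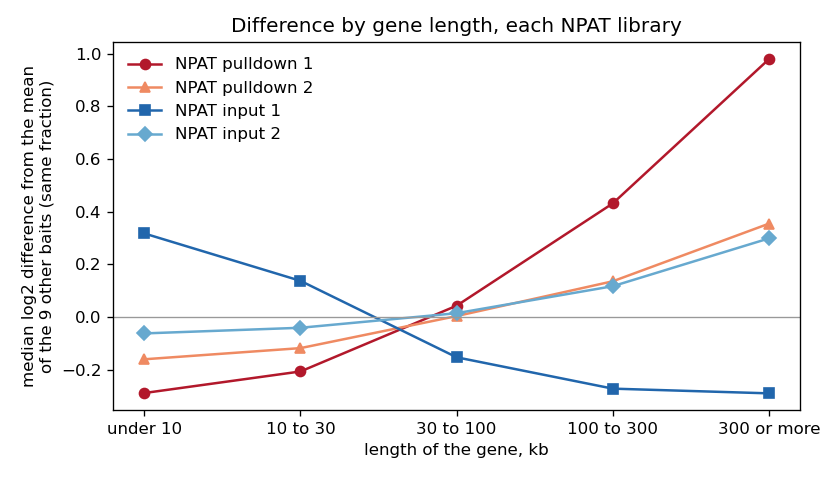
Median log2 difference from the mean of the 9 other baits in the same fraction (vertical axis) for genes grouped by length in kb (horizontal axis), 1 line for each NPAT pulldown and input library. In the genes of 300 kb or more the pulldowns stand at 0.98 and 0.35 and the inputs at -0.29 and 0.30.

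Among genes of at least 5 CPM on average whose NPAT mean lay beyond that of every other bait, 11 of the 12 highest were LSAMP, DLGAP1, LINC01933, FAM155A, CHSY3, CACNB4, DNAH17, LINC01411, NPAT, TMEM132B and FGF13. LINC01933 and FAM155A lost their calls without NPAT replicate 1. Their lower NPAT libraries, at 10.7 and 10.1 CPM, lay below the highest other library, at 11.9 and 12.8 CPM. LSAMP, a neuronal cell adhesion gene (chr3:115802374-116445487), had 90.2 and 47 CPM in NPAT and 1.73, 5.71 and 56.5 (lowest, median and highest) in the others. The FBL libraries, at 52.6 and 56.5 CPM, lay between the NPAT libraries. The difference of LSAMP was 3.36 ± 0.22, and its NPAT inputs held 15.1 and 33 CPM, which stood 2.31 and 3.43 above the mean of the other inputs on the log2 scale.
DLGAP1, which encodes a synaptic scaffold protein (chr18:3496032-4455307), had 28.4 and 18 CPM against 1.03 to 10, without overlap, and a difference of 2.67 ± 0.21. DNAH17, an axonemal dynein gene (chr17:78423697-78577396), had 45.5 and 47.3 CPM against 6.91 to 34.9, and 1.66 ± 0.07. Outside this comparison, and scaled over all 28 pulldowns, DNAH17 had 68.8 and 67.4 CPM in the FLAG pulldowns. It had 10.4 and 10.6 CPM in the NLS pulldowns. The NPAT inputs held 5.34 and 9.65 CPM of DLGAP1. They stood above the other inputs by 1.94 and 1.47 for DNAH17 on the log2 scale. FGF13 stood at 1.49 ± 0.22 in the pulldown, with inputs at -0.28 and 0.64.

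Of the 12 lowest genes by the same rule, 11 were SALL3, ZNF320, LINC00958, ZNF486, SEMA4G, CASP10, ZNF600, HOXA11-AS, MYD88, HOXA-AS2 and TTC21A. SALL3, a developmental zinc finger factor (chr18:78979818-78998969), had 0.298 and 0.119 CPM in NPAT and 0.836, 9.37 and 27.5 in the others. The groups did not overlap, the difference was -4.78 ± 0.26, and the inputs stood at -4.56 and -4.46. LINC00958 (chr11:12979534-12989548) had 3.45 and 2.11 CPM against 9.52 to 40.2, a difference of -3.22 ± 0.14 and inputs at -3.46 and -2.82. ZNF320 stood at -3.40 ± 0.20 with inputs at -3.39 and -3.03. For these 3 genes the pulldown difference was about that of the inputs.
Some of these genes lie close to another lower gene. ZNF600 (chr19:52764164-52833645, -1.49 ± 0.17) lies near ZNF320 (chr19:52859491-52904320). CASP10 (chr2:201183141-201229406, -1.62 ± 0.22) lies beside CASP8 (chr2:201233463-201287711), an initiator caspase gene like it. CASP8 had 19.4 and 18.2 CPM against 24.4 to 59.2, stood at -0.93 ± 0.08 and was lower against all 9 baits singly. TTC21A was lower in the pulldown (-1.19 ± 0.24) with inputs at 0.19 and 0.18. HOXA11-AS and HOXA-AS2 are antisense genes, and whether reads were counted by strand is not given in the sources used here, so they cannot be told apart from their partners.
Of the 1077 genes at least 2-fold higher, 472 had both NPAT inputs above the mean of the other inputs and 92 had both above the input mean of each bait. Of the 382 at least 2-fold lower, 177 and 62 had both inputs below in the same ways. Over all tested genes, both NPAT inputs lay above the input mean of each bait for 638 (2.81%) and below it for 439 (1.94%). How many of all genes had both inputs above or below the mean of the other inputs was not counted.
Among genes called against all 9 baits singly, ADCY9, an adenylyl cyclase gene, had 187 and 161 CPM against 62.3 to 134 (0.95 ± 0.08). PCGF6, a Polycomb subunit gene, had 102 and 104 CPM against 37.1 to 83.5 (0.62 ± 0.07). TBRG1 had 22.4 and 26.7 CPM against 30.3 to 98.2 (-1.07 ± 0.08). These 3 genes, CASP8, TNK1 and AC010148.1 were chosen after their values were seen.

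**Figure D5:**
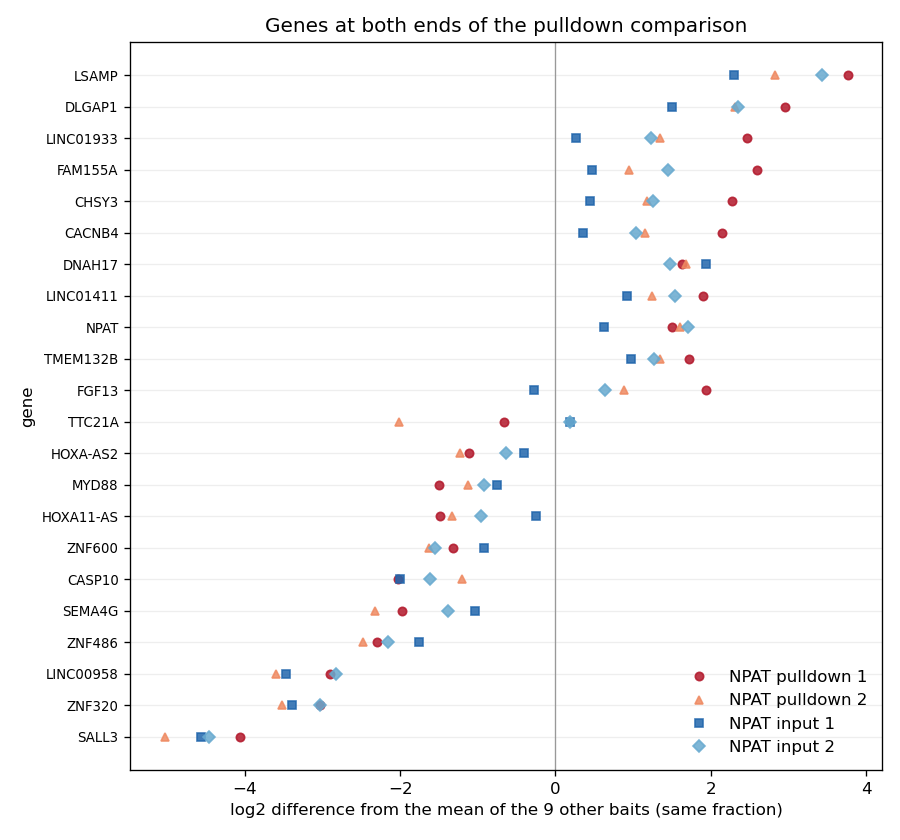
Log2 difference from the mean of the 9 other baits in the same fraction (horizontal axis) for 11 of the highest and 11 of the lowest genes (vertical axis), with 1 point for each NPAT pulldown and input library. SALL3 stands at -4.07 and -5.03 in the pulldowns and at -4.56 and -4.46 in the inputs, while TTC21A stands at -0.66 and -2.02 against 0.19 and 0.18.

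Many RNAs tied to splicing control were lower in NPAT than in the mean of the 9. Of 35 genes for SR proteins and splicing regulators, 24 (68.6%) were lower and 2 higher, with a median of -0.36. CLK2, a kinase of SR proteins, had 64.7 and 62.6 CPM, within 59.5 to 355 in the others, and stood at -0.73 ± 0.07. PNISR, ARGLU1 and SRSF11 stood at -0.69 ± 0.08, -0.60 ± 0.08 and -0.52 ± 0.07. Of 20 genes known for introns that are kept in nuclear transcripts, 16 (80%) were lower and 0 higher, with a median of -0.56, among them the cyclin L genes CCNL1 (-0.67 ± 0.07) and CCNL2 (-0.61 ± 0.07).
Against SRSF1 and RNPS1, 19 and 19 of these 20 were lower. Against WRAP53 0 were lower and 3 higher, and against FBL 1 was lower and 1 higher, where the shares of all genes lower were 3.73% and 5.97%. For the splicing regulators, 29 were lower against SRSF1, 1 against WRAP53 and 2 against FBL. With SRSF1, SRSF7 and RNPS1 left out of the reference, 8 of the 20 and 13 of the 35 were lower, against 16.7% of all genes, and CLK2 and CCNL2 lost their calls.

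Host genes of small nucleolar RNAs, which carry them in introns, gave 17 lower (73.9%) and 2 higher of 23 tested, with a median of -0.52. SNHG12 had 25.6 CPM in both NPAT libraries against 21.7 to 161 (-0.69 ± 0.09). Its SAM68, SMN2 and WRAP53 means, at 24.6, 23.2 and 21.9 CPM, lay below NPAT, and the other bait means lay above. SNHG12 was not called without SRSF1, SRSF7 and RNPS1 in the reference. SNHG7 had 59.1 and 60.2 CPM against 62.3 to 147, without overlap (-0.53 ± 0.08). Of the 23 host genes, 8 were lower against FBL and 0 against WRAP53. Without SRSF1, SRSF7 and RNPS1 in the reference 9 were lower, and 10 were without NPAT replicate 1. Among single noncoding RNAs, the speckle RNA MALAT1 was lower than the mean of the 9 (-0.90 ± 0.09), with 1576 and 1352 CPM against 985, 1841 and 10746 (lowest, median and highest in the others). The PML, SMN2 and WRAP53 means of MALAT1, at 1449, 1449 and 1078 CPM, lay below the NPAT mean of 1464, and without the 3 speckle baits its difference was -0.12 and not called. TUG1 (-0.59 ± 0.10), SNHG1 (-0.54 ± 0.09) and GAS5 (-0.30 ± 0.08) were lower as well, SNHG1 and GAS5 not without the speckle baits and GAS5 not without NPAT replicate 1. NEAT1, the paraspeckle scaffold, had 492 and 389 CPM against 181 to 918 and did not pass the test (-0.08 ± 0.13). KCNQ1OT1, an imprinted long RNA, passed narrowly (0.53 ± 0.19, edgeR adjusted p = 0.0494) and lost its call in 23 of 42 alternatives. SOX2-OT was higher (0.89 ± 0.23), but not called without NPAT replicate 1.

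Of 38 genes of DNA replication and the G1/S transition, 4 were higher and 12 lower, with a median of -0.07. POLD1 (-0.51 ± 0.08) and POLE (-0.40 ± 0.07), catalytic subunits of the replicative DNA polymerases, MCM7 (-0.44 ± 0.08) of the replicative helicase and CDT1 (-0.41 ± 0.07) of origin licensing were lower. POLE stood at 0.011 with SRSF1, SRSF7 and RNPS1 left out of the reference. Of 23 G2/M genes, 1 was higher and 5 lower, with a median of -0.11, a share lower (21.7%) near that of all genes. Of the 38, 3 were higher and 5 lower without NPAT replicate 1, and of the 23, 0 and 0 were. Without the speckle baits, 13 of the 23 were lower. Genes for Cajal body and gem proteins included the bait gene WRAP53. It was lower, but not called with its own pulldown left out of the reference. Of the 24 tested, WRAP53 among them, 1 was higher (ELL, 0.42 ± 0.10) and 9 lower, such as GEMIN4 (-0.42 ± 0.07) and DKC1 (-0.39 ± 0.08). These counts fell to 0 and 2 without NPAT replicate 1, where ELL and DKC1 lost their calls.

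Immediate early genes gave 0 higher and 17 lower (47.2%) of 36, with a median of -0.25, but 2 higher and 4 lower without NPAT replicate 1. ARC had 6.26 and 5.01 CPM against 6.48 to 20.1, without overlap (-0.86 ± 0.12), and DUSP6 (-0.71 ± 0.10) and MCL1 (-0.54 ± 0.08) followed. Ribosomal protein genes gave 0 higher and 18 lower (22.8%) of 79, with a median of -0.08, and genes of the respiratory chain 1 higher and 12 lower (19%) of 63, both near the 18.2% of all genes. Without NPAT replicate 1, 2 and 4 were lower, and without the 3 speckle baits 55 and 38 were. Genes of the secretory pathway at the endoplasmic reticulum gave 6 higher (18.2%, near the 16.5% of all genes) and 1 lower of 33, with a median of 0.14, such as SEC11A of the signal peptidase (0.42 ± 0.07). Without NPAT replicate 2 the counts were 2 and 2, and without the speckle baits 0 and 6 with a median of -0.12, where SEC11A was not called. Of 23 tested genes of the mitochondrial genome, 6 were higher and 3 lower. MT-TP had 12.1 and 12.2 CPM against 2.85 to 11.6 (0.96 ± 0.11), and MT-ND3 had 5.76 and 4.17 CPM against 3.81 to 19.1 (-0.82 ± 0.19). Without NPAT replicate 2, 3 were higher and 0 lower of 24.

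Zinc finger genes named ZNF were lower in 186 (41.8%) and higher in 38 (8.54%) of 445 tested, with a median of -0.20. Of 459 tested without NPAT replicate 1, 107 were lower and 15 higher. ZNF542P had 15.6 and 16.6 CPM against 18.3 to 58.2, without overlap (-1.15 ± 0.08). Chromosome 19, which holds many of them, had 393 of 1112 genes (35.3%) lower, and chromosome 16 had 271 of 751 (36.1%). Intergenic RNAs named LINC were higher in 194 (22.5%) and lower in 52 (6.03%) of 862 tested. Of 1066 tested without NPAT replicate 1, 53 were higher and 33 lower. LINC01198 had 19.8 and 13 CPM, within 0 to 20.6 in the others (1.84 ± 0.15), and LINC00632 had 1.56 and 1.19 CPM, within 0.786 to 40.3 (-1.88 ± 0.18).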

How the data were processed

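Ribosome-depleted RNA of streptavidin pulldowns was measured by RNA-seq. Per the submitters' processing notes, reads were aligned to hg38 with STAR 2.7.4a and counted with featureCounts; for the annotation and the use of strand, nothing is given in the sources used here. The authors deposited raw counts per gene; 1 of 60591 rows, that of DDX11L1, holds a value that is not a number and was left out. The labels gave the groups.

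The 20 body pulldowns were fitted with edgeR 4.0.16 in R 4.3.3 (TMM, filterByExpr, robust quasi-likelihood test, 1 mean per bait, 10 residual degrees of freedom, two-sided, Benjamini-Hochberg). SE is the log2 difference divided by the root of F. DESeq2 1.42.0, other scalings, filters, references and left-out libraries were alternatives. Input differences use log2 CPM with a prior count of 2. Named genes are the 12 highest and 12 lowest called coding or long noncoding genes of at least 5 CPM whose NPAT mean lay beyond each other bait's, the bait genes, ATM, the histone locus body list, landmark RNAs and up to 4 genes of each list by p-value. A gene at each end of this ranking is not reported here. The members and lists were chosen with earlier results of these data known. Lists were described by counts and medians, with no list test.

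Replicate numbers were not used to pair the libraries: 12 of 45 pairs of baits had a correlation of replicate differences over 0.1. For NPAT the correlation was 0.641 with SMN2, the highest of the 45, 0.412 with WRAP53 and 0.22 with SRSF7. It was 0.0586 with SRSF1 and 0.0446 with SAM68, and negative with RNPS1, PML, FBL and SP100 (-0.449 for SP100). In simulated data for this comparison (22668 genes), 30 of 67 genes changed 1.5-fold, 43 of 67 changed 2-fold and 52 of 66 changed 4-fold were recovered. Depth of 19280434 to 40519593 counts sets the counting error. Gene coordinates and promoters are from RefSeq (GRCh38.p14); of the tested genes, 4970 had no match.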

Additional observations from a re-analysis of the deposited data

How the results depend on the processing

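With the 9 other baits as 1 group, 5 genes were called in all, with 0 histone genes and 1 gene of 300 kb or more higher, and 0 detained intron genes, 0 small nucleolar RNA host genes, 0 splicing regulators and 0 histone cluster neighbours lower. With NLS and FLAG as the reference, 3 histone genes were higher, and 8 detained intron genes, 9 host genes, 13 splicing regulators and 5 neighbours were lower. Of all 23358 genes tested in that fit, 3511 were higher and 2003 lower. Without SRSF1, SRSF7 and RNPS1 in the reference, an alternative chosen after seeing the data, the counts were 6 histone genes higher, and 8, 9 and 13 of the next 3 lists lower. Fits of all 28 pulldowns or all 56 libraries gave 8 and 8 histone genes higher. Over all genes, 3161 of 23358 and 3194 of 23681 were higher in these 2 fits. Without NPAT replicate 1 and SMN2 replicate 1 together, also chosen after seeing the data, 4450 genes were called, 258 genes of 300 kb or more were higher and 11 host genes lower. The cause of these changes was not tested.
Leaving out 1 library at a time gave 3446 (without NPAT replicate 1) to 8528 calls, 6 (without NPAT replicate 2) to 23 histone genes higher, 110 (without NPAT replicate 1) to 650 long genes higher, and 15 to 16 detained intron genes, 10 (without NPAT replicate 1) to 17 host genes, 16 to 26 splicing regulators and 9 to 11 neighbours lower. The lone library left in a bait is assumed to vary like the others.
Among named genes called in the reported fit, those that changed sign were SP100, at 0.20 without SP100 in the reference and 0.81 against NLS and FLAG, RMRP, at -0.19 against NLS and FLAG and from -0.10 (without NPAT replicate 2) to 0.61 (without NPAT replicate 1) with 1 library left out, and MT-ND6, at -0.55 against NLS and FLAG. Without the 3 speckle baits, POLE stood at 0.011, AURKB at 0.13, SSR1 at -0.091 and H4C3 at -0.016.
The other alternatives gave 6522 (mean CPM of 5 or more) to 8748 calls (WRAP53 out of the reference); DESeq2's Wald test gave 7514 and library totals 7938, of which 53.6% were higher against 47.5% in the reported fit. The labels give same-numbered libraries only a number in common, and with a replicate block 7823 genes were called. DLGAP1, NPAT and LINC00958 kept their calls in all 42 alternatives run. Of 62 named genes that were not called, 45 took both signs among the alternatives. Genes with few counts in every library could not be tested.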
